A study of Mus musculus with 6 samples.

Results

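The 9 genes described here control how pyruvate enters mitochondrial oxidation: the pyruvate dehydrogenase kinases Pdk1, Pdk2, Pdk3 and Pdk4, the phosphatase subunits Pdp1 and Pdp2, the enzyme subunit Pdha1, and the mitochondrial pyruvate carrier subunits Mpc1 and Mpc2. They were taken by symbol from the 32285 features of the count tables, and all 9 were found. They were chosen by a measured value, the lower Pdk4 level of knockout hepatocytes, so the group difference in hepatocytes is described without a test of the members. The study sequenced liver nuclei from 6 mice, 1 library per mouse, with 10x Genomics 3' chemistry. It asks how hepatic stellate cells, the retinoid-storing pericytes of the liver, affect fatty acid use through Plvap, a protein of endothelial fenestral diaphragms and caveolae. Counts were summed over the nuclei of a cell class in each library, and levels are UMIs of the gene per 1000000 UMIs of that class (CPM).

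Both groups were male C57BL/6JBomTac mice aged 18 weeks, fed chow and fasted for 12 hours overnight. The 3 controls were littermates, and the 3 others are labelled Plvap knockout. The line name, shared by all 6 samples, joins the allele Plvaptm1.1Salm to the transgene Tg(Lrat-cre)1Rshw, on a background given as B6.126(Cg). The Cre recombinase is thus driven by the Lrat promoter, which is active in stellate cells. The labels do not say which alleles the littermate controls carry. Plvap in stellate nuclei measured 240, 218 and 242 CPM in controls and 228, 194 and 156 CPM in knockouts. The groups overlap, and since the labels do not place the deleted part relative to the 3' tag, this level does not check the deletion. "Knockout" below means the libraries labelled so.

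Pyruvate from glycolysis, lactate or alanine crosses the inner mitochondrial membrane through the carrier formed by Mpc1 and Mpc2. The pyruvate dehydrogenase complex, whose catalytic alpha subunit is Pdha1, turns it irreversibly into acetyl-CoA. Kinases of the Pdk family switch the complex off by phosphorylation, and Pdp phosphatases switch it back on. In fasted liver Pdk4 is known as a target of PPARA, FOXO and glucocorticoid signalling that spares pyruvate for gluconeogenesis.

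After filtering, 25663 nuclei remained of 27297 barcodes, with 4075.5 to 5329 median UMIs per library. Of these, 5241 nuclei were hepatocyte-like, 3091 stellate-like, 9452 endothelial-like, 4426 macrophage-like, 944 T/NK-like, 791 B-like and 536 cholangiocyte-like, by marker genes. The "-like" is dropped below. Libraries shared 1 to 10 barcodes per pair. Control 1 and knockout 2 stood apart in hepatocytes. A cluster led by genes that include Angptl8 and Pklr, which are known to rise on feeding, held 77.9% and 78.3% of their hepatocyte nuclei. It held at most 0.139% in any other library. Knockout 1 stood apart as well: a cluster led by Nipal1, Afm and Mup21 held 78.7% of its hepatocyte nuclei and at most 2.85% in any other library. Control 2, control 3 and knockout 3 shared a cluster led by Cyp17a1, with 58.2% to 73.2% of their hepatocyte nuclei. Macrophages also differed by library: a cluster led by Il1b and Cd83 held 82.6% and 91% of the macrophage nuclei of control 1 and knockout 2, 65.5% in knockout 1, and 4.21% to 27.3% in the remaining 3. Some results that rest on these libraries are given with and without them.

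The 4 kinases differed in which cell classes held them: Pdk1 led in T/NK nuclei and Pdk2 in hepatocytes, Pdk3 was shared by the immune classes, and Pdk4 was shared by 4 classes with overlapping ranges. These orders are descriptions, since the classes were made from the same nuclei. Pdk1, a kinase known to be induced by hypoxia-inducible factors, was highest in T/NK nuclei, at 102 ± 19.1 CPM (SD, n = 6 libraries). It was at 50.9 ± 14.7 CPM in B nuclei and 50.3 ± 14.4 CPM in endothelial nuclei, whose ranges overlap, and lowest in stellate nuclei at 3.43 ± 1.09 CPM. T/NK libraries ranged from 81.5 to 135 CPM and none reached down to the B range of 30.2 to 66.4 CPM. Within T/NK nuclei, the cluster led by Lef1, Il7r and Tcf7, genes of naive and memory T cells, had more Pdk1 than the cluster led by Klrb1c and Tbx21 in 6 of 6 libraries (96.2 to 221 against 77.2 to 113 CPM). These clusters, and the others compared below, were picked after their values were seen.

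Pdk2, the kinase known as the broadly expressed form with high levels in liver, had its highest level in hepatocytes. The 6 hepatocyte libraries lay between 29.2 and 39.5 CPM, with a mean of 34.1 ± 4.42 CPM. Cholangiocytes came next at 15.5 ± 8.70 CPM from 36 UMIs in all, and their highest library, at 29.2 CPM, lay just under the lowest hepatocyte library. The remaining 5 classes had means of 3.56 to 7.29 CPM and overlapped with their neighbours in that order.

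Pdk3, a kinase encoded on the X chromosome, was highest in the immune classes and lowest in hepatocytes. It was at 30.1 ± 9.73 CPM in B, 24.1 ± 13.6 CPM in T/NK and 22.7 ± 7.65 CPM in macrophage nuclei, with overlapping ranges, and at 0.262 ± 0.141 CPM in hepatocytes, from 14 UMIs. Macrophage Pdk3 was 26.4, 15.1 and 22.2 CPM in controls and 25.2, 33.9 and 13.3 CPM in knockouts. The low libraries, control 2 and knockout 3, are those in which the Marco and Cd163 cluster made up 86.8% and 90.6% of macrophages. Pooled over libraries, that cluster had 15.8 CPM of Pdk3 and the Il1b and Cd83 cluster 29.4 CPM. Within libraries the second was higher in 4 of 6.

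Pdk4 was present in 4 classes and close to absent in the immune ones. Its means were 34.7 ± 8.98 CPM in cholangiocytes, 33.7 ± 15.96 CPM in stellate cells, 32.8 ± 7.74 CPM in endothelial cells and 28.0 ± 22.8 CPM in hepatocytes, with ranges that overlap between neighbours. Macrophages had 1.72 ± 1.06 CPM, T/NK nuclei had 2 UMIs in all, and none of the 791 B nuclei had a UMI, which allows a share of nuclei with a UMI of up to 0.379% by counting error alone, at library medians of 1755 to 2210 UMIs per B nucleus. UMIs were found in 13.3% of hepatocyte nuclei (95% exact binomial interval 12.4% to 14.2%), 13.4% of stellate nuclei and 0.746% of macrophage nuclei. With each nucleus thinned to 1500 UMIs, the share by library was 0.574% to 7.14% in hepatocytes, 2.15% to 8.55% in stellate cells, 0% to 0.806% in macrophages and 0% in B and T/NK nuclei. Within the endothelium, the cluster led by Lyve1 and Pcdh17 had more Pdk4 than the cluster led by Kit and Wnt2 in 6 of 6 libraries (32.7 to 68.4 against 20 to 41.7 CPM). Of the stellate clusters, that led by Adamtsl2 and Grid1 had more than that led by Piezo2 and Colec10 in 5 of 6 libraries.

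**Figure D1:**
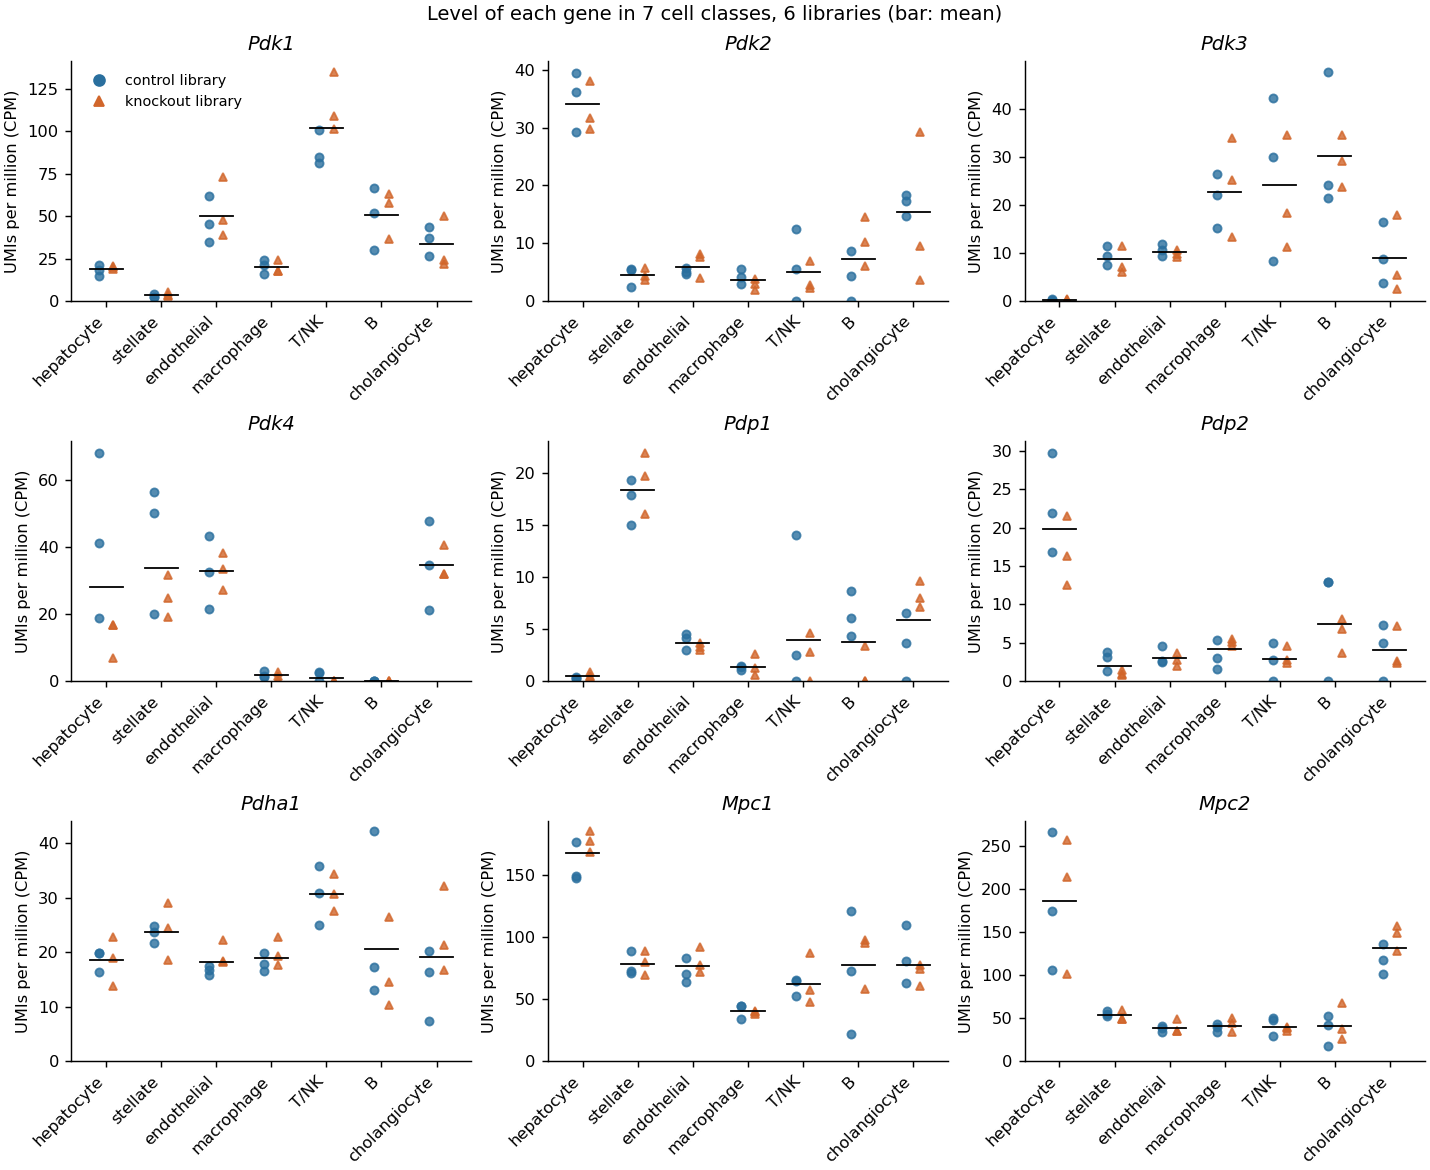
Level of each of the 9 genes (CPM, linear axes from 0) in 7 cell classes. Circles are control libraries, triangles knockout libraries and black bars the mean of 6 libraries; Pdk4 is near 0 in macrophage, T/NK and B nuclei, and Pdk3 and Pdp1 are near 0 in hepatocytes.

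The phosphatase subunits divided between cell classes. Pdp1, the calcium-sensitive phosphatase subunit, was highest in stellate cells, at 18.3 ± 2.54 CPM with a range of 14.99 to 21.9 CPM, above the range of the next class, cholangiocytes (0 to 9.57 CPM). Hepatocytes had 0.434 ± 0.252 CPM of Pdp1, from 25 UMIs. Pdp2, the subunit that does not depend on calcium, was highest in hepatocytes, at 19.8 ± 6.03 CPM, and at 1.90 to 7.41 CPM on average elsewhere. Its lowest hepatocyte library, at 12.5 CPM, lay under the highest B library, at 12.97 CPM, with 13 UMIs in all B nuclei. Pdha1 was nearly even: its class means ran from 18.1 CPM in endothelial cells to 30.7 CPM in T/NK nuclei, and every class overlapped the next. Mpc1 was highest in hepatocytes, at 167 ± 15.7 CPM, above the range of every other class. Mpc2 had its highest mean in hepatocytes, at 186 ± 72.1 CPM, but its range of 101 to 266 CPM overlapped that of cholangiocytes, 102 to 157 CPM with a mean of 131 ± 20.2 CPM. Mpc2 was at 38.7 to 53.7 CPM on average in the other 5 classes. Hepatocytes held Pdk2, Pdk1, Pdk4, Pdp2, Pdha1, Mpc1 and Mpc2, and these 7 passed the filter on low counts there.

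The promoters of Pdk4 and Pdk2 are shown because Pdk4 had the widest differences of the kinases in hepatocytes and Pdk2 was the kinase with its highest class level there. Pdk4 lies at chr6:5483351-5496309 on the minus strand and Pdk2 at chr11:95026258-95041354 on the minus strand (mm10). The windows are 300 bases around the RefSeq start sites (GRCm38.p6), chr6:5496229-5496528 and chr11:95041322-95041621, read 5' to 3' on the strand of the gene. Capitals mark matches, on either strand, to CAAAG, the core of the HNF4 element, to CCAAT, the box bound by NF-Y, and to CACGTG, an E-box.
Pdk4: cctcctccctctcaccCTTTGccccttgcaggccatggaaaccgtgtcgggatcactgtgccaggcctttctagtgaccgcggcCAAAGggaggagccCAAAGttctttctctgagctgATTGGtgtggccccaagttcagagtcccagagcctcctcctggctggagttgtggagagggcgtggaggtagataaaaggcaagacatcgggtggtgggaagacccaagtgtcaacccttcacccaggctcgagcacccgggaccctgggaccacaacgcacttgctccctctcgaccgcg
Pdk2: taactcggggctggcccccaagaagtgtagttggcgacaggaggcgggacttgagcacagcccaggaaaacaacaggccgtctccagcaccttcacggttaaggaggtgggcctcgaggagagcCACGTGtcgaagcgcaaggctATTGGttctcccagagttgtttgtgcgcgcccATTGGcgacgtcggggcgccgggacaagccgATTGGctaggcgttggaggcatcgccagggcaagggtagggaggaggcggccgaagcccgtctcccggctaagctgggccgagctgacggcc
The Pdk4 window held CAAAG at 3 places and CCAAT at 1, and its GC content was 60.7%. The Pdk2 window held CCAAT at 3 places and CACGTG at 1, with a GC content of 64.7%. Of all 32851 RefSeq promoter windows of this length, 53.9% hold CAAAG, 37.4% CCAAT and 7.15% CACGTG. Neither AGGTCA (a nuclear receptor element, in 16.3% of windows) nor GTAAACA (FOXO site, in 3.65%) occurred in either window. Pdk2 has a second RefSeq start, not printed here. In the annotation Pdk2, Pdha1 and Mpc1 overlap genes on the opposite strand (Gm11513, Map3k15 and 4930506C21Rik) and Mpc2 overlaps Gm37860. Gm37860 lies on the same strand as Mpc2, so the strand cannot separate their reads. For the partners on the opposite strand, no source used here says whether counting used the strand. Whether their reads were counted to Pdk2, Pdha1 or Mpc1 was not tested.

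In hepatocytes Pdk4 was the member with the largest difference between the groups, and the values of control 1 lay close to those of the knockouts. Pdk4 had 18.8, 41.1 and 68.3 CPM in controls 1 to 3 and 16.6, 16.7 and 6.76 CPM in knockouts 1 to 3. The groups did not overlap, but the lowest control lay only just above the highest knockouts, and control 3 was the highest library by far. Group means were 42.7 ± 24.8 and 13.3 ± 5.70 CPM (SD, n = 3), and the log2 fold change was -1.79 (SE 0.55). Without control 3 it was -1.18, without knockout 1 it was -1.999, and without control 1 and knockout 2 it was -2.32. As a description of the value that chose these genes, Pdk4 was 1 of 7 measured members lower in every knockout than in any control, and the same held for 3.9% of 13780 genes (7.66% in either direction). Over the whole table, 0% of genes passed the adjusted p of 0.05 in edgeR. At an unadjusted p under 0.05 there were 474 genes, and DESeq2 called 14 genes.

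The other 6 members measured in hepatocytes had fold changes smaller than 0.5 on the log2 scale. Pdk2 had 29.2, 39.5 and 36.1 CPM in controls and 29.7, 38.0 and 31.7 CPM in knockouts, which overlap (log2 fold change -0.15, SE 0.19). Pdk1 had 14.96 to 21.1 CPM in controls and 18.9 to 20.8 CPM in knockouts (0.08, SE 0.16). Pdp2 had 29.8, 22.0 and 16.8 CPM in controls and 12.5, 21.6 and 16.2 CPM in knockouts, with a log2 fold change of -0.49 (SE 0.23). Control 1 was the highest Pdp2 library and the groups overlapped. Pdha1 gave -0.06 (SE 0.21). Mpc1 had 176, 147 and 149 CPM in controls and 169, 185 and 177 CPM in knockouts, which overlap. After TMM scaling, the normalization used in the fit, its groups no longer overlapped, with knockouts higher (0.12, SE 0.13, background 3.76% of genes). Pdk3 and Pdp1 did not pass the filter.

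**Figure D2:**
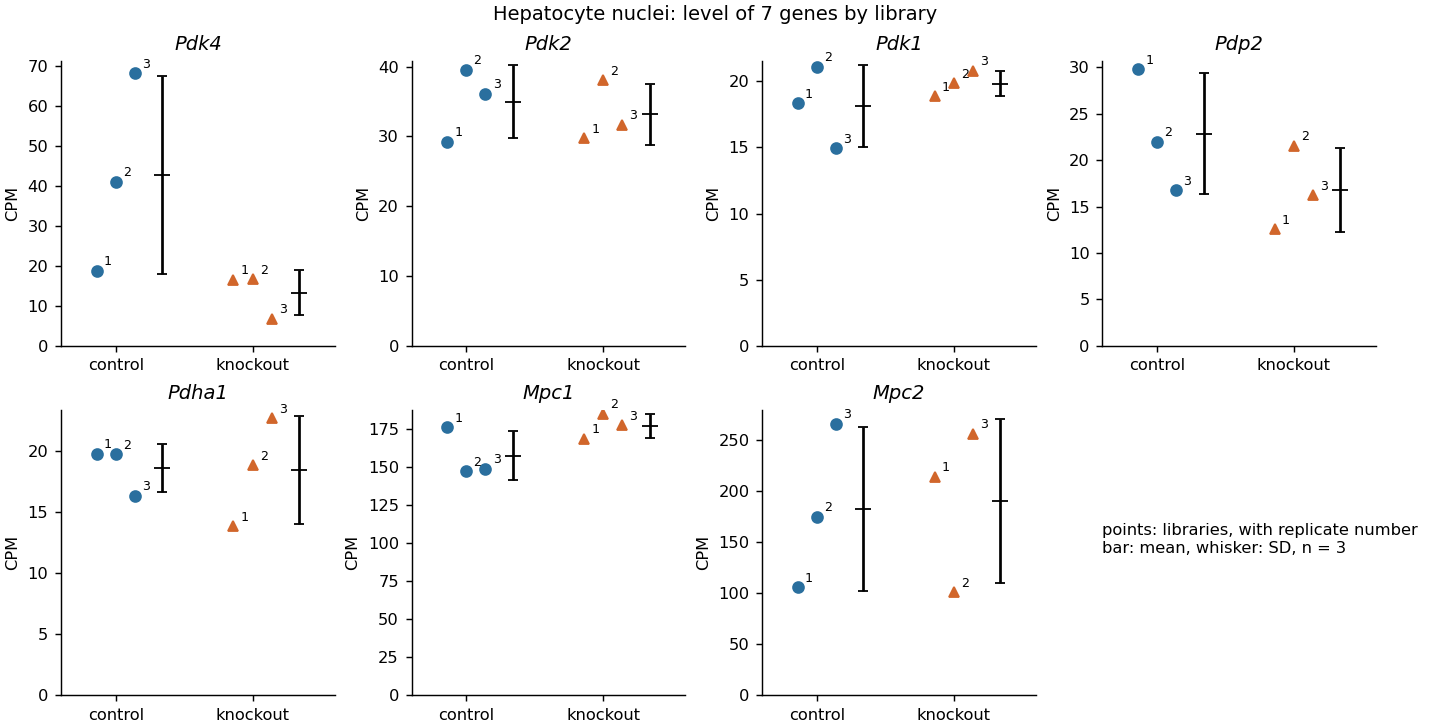
CPM of 7 genes in hepatocyte nuclei, linear axes from 0; points are libraries with their replicate number, bars the mean and whiskers the SD (n = 3). Pdk4 separates the groups with control 1 (18.8 CPM) near the knockouts, whereas Mpc2 is low in control 1 and knockout 2.

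Mpc2 also varied between hepatocyte libraries. Control 1 was the lowest control for both genes, whereas knockouts 1 and 3, low for Pdk4, were not low for Mpc2. Mpc2 had 105, 175 and 266 CPM in controls and 214, 101 and 256 CPM in knockouts, a log2 fold change of -0.01 (SE 0.48). Over the alternatives run, this fold change ranged from -0.33 to 0.45. The low libraries were control 1 and knockout 2. They were lower than the other 4 in each of 7 bins of the zone score described below, at 87.9 to 122 CPM against 151 to 361 CPM. In stellate nuclei Mpc2 ranged only from 48.4 to 58.9 CPM, with both libraries inside the range of the rest. The same 2 libraries were high for Angptl8, an insulin-induced lipase regulator, at 106 and 211 CPM after TMM scaling, against 3.23 to 14.3 CPM in the others. They were low for Igfbp1, an insulin-repressed binding protein, at 13.4 and 93.3 CPM against 425 to 1134 CPM. Lpin1, a fasting-induced phosphatidate phosphatase, was at 26.2 and 109 CPM there and 228 to 1088 CPM elsewhere. Igfbp1 and Lpin1 were chosen after their values were seen.

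Among the 4 libraries other than control 1 and knockout 2, Pdk4 was 41.1 and 68.3 CPM in controls and 16.6 and 6.76 CPM in knockouts. In control 1 and knockout 2 it was 18.8 and 16.7 CPM. These sets were formed from the data, and the part of the library state in the Pdk4 difference was not tested.

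**Figure D3:**
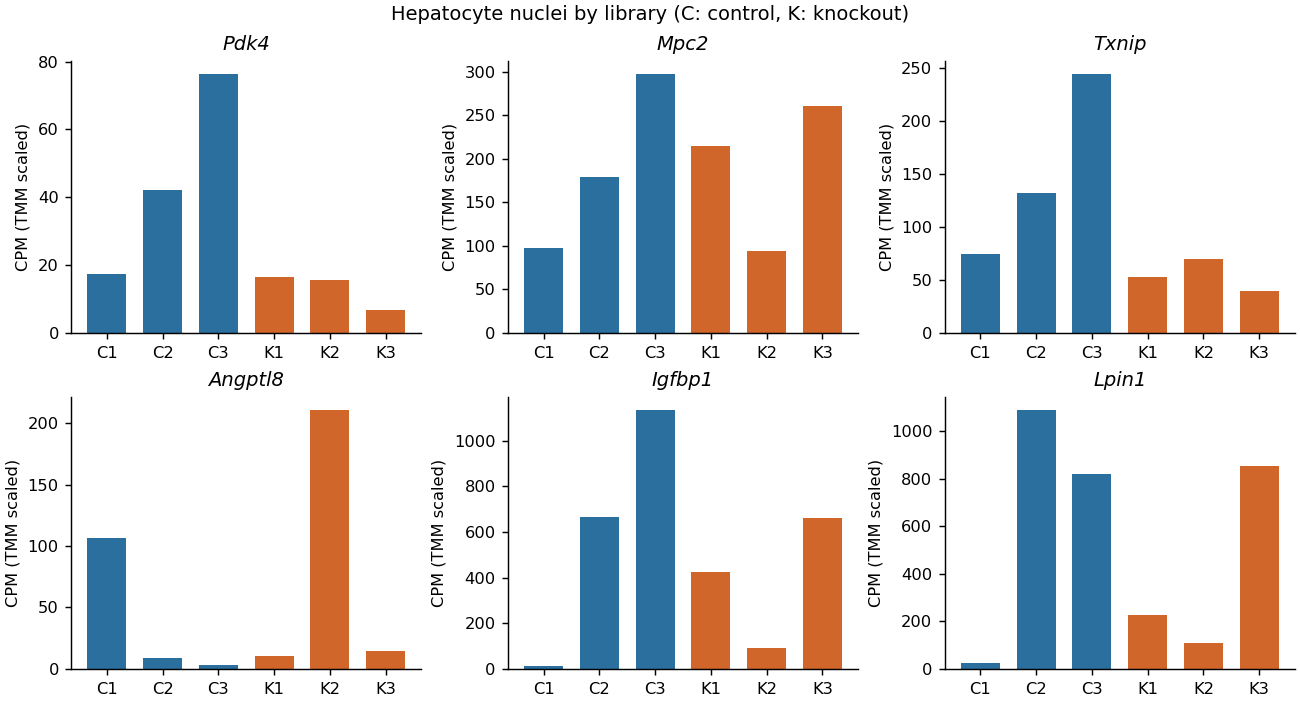
TMM-scaled CPM in hepatocyte nuclei of controls 1 to 3 (C1 to C3, blue) and knockouts 1 to 3 (K1 to K3, orange), linear axes from 0. Angptl8 is high, and Mpc2, Igfbp1 and Lpin1 are low, in C1 and K2; Pdk4 and Txnip are highest in C3.

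Within hepatocytes, Pdk4 differed with position along the lobule. A zone score, pericentral minus periportal marker expression, divided the hepatocyte nuclei of each library into 3 zones of equal nucleus number. Pericentral hepatocytes surround the outflowing central vein, and periportal ones the inflowing portal vessels. In the pericentral zone Pdk4 was high in controls 2 and 3. It had 30.03, 112 and 182 CPM in controls and 38.1, 25.5 and 15.2 CPM in knockouts. In the middle zone controls had 17.6, 11.5 and 16.3 CPM and knockouts 7.998, 12.0 and 2.68 CPM. At these levels the groups overlap in both zones: control 1 lay below knockout 1 in the pericentral zone, and control 2 below knockout 2 in the middle zone. After TMM scaling control 2 lay just above knockout 2 in the middle zone, at 12.1 against 11.5 CPM. In the periportal zone controls had 9.56, 3.15 and 13.1 CPM and knockouts 5.27, 12.8 and 2.38 CPM, which overlap too. Pdk4 was higher in the pericentral than in the periportal zone of 6 of 6 mice, by TMM-scaled ratios from 1.94-fold in knockout 2 to 33.8-fold in control 2. With mice as blocks, the log2 ratio was 2.90 (SE 0.46, edgeR quasi-likelihood test, Benjamini-Hochberg adjusted p 0.000693). Without control 1 and knockout 2 it was 3.76.

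Of the 7 members tested between the zones, 4 passed, against 27.4% of 11848 genes (12.5% pericentral, 14.9% periportal). On library size alone the split of all calls turned from 1483 pericentral and 1766 periportal to 1835 and 1459. Besides Pdk4, Mpc2 was pericentral, with a log2 ratio of 0.22 (SE 0.06, edgeR adjusted p 0.00522) and higher in 5 of 6 mice after TMM scaling. Its pericentral level was 104 CPM, 196 CPM and 327 CPM in controls and 232 CPM, 106 CPM and 309.9 CPM in knockouts. Its periportal level was 103 CPM, 165 CPM and 233 CPM in controls and 198 CPM, 102 CPM and 225.5 CPM in knockouts. The zones differed least in control 1 and knockout 2. Pdk1 was periportal at -0.34 (SE 0.12, edgeR adjusted p 0.0326, lower in the pericentral zone of 5 of 6 mice). Pdk2 was periportal at -0.27 (SE 0.09, edgeR adjusted p 0.0349, lower in 4 of 6 mice). TMM-scaled ratios per mouse of the pericentral to the periportal level ran from 0.545 to 1.02 for Pdk1 and from 0.688 to 1.05 for Pdk2, so both gradients were small beside that of Pdk4. The calls of Pdk1 and Pdk2 were lost on library size alone (edgeR adjusted p 0.0655 and 0.0828) and with periportal markers limited to those outside amino acid metabolism (0.0963 and 0.106). Pdk1 also lost the call without control 2, control 3, knockout 1 or knockout 3 (edgeR adjusted p 0.0875, 0.232, 0.0795 and 0.0808). Pdk2 lost it without control 2, control 3, knockout 2 or knockout 3 (edgeR adjusted p 0.0748, 0.125, 0.173 and 0.111). Without control 1 and knockout 2, Pdk1 passed at -0.52 (edgeR adjusted p 0.0109) and Pdk2 did not at -0.26 (edgeR adjusted p 0.11). The Pdk4 call held in every alternative in which Pdk4 was tested, with an adjusted p of at most 0.00791. With nuclei thinned to 1500 UMIs, Pdk4 and Pdk1 fell under the filter, and Mpc2 had a ratio of 0.22 with an edgeR adjusted p of 0.156. Mpc1 (0.11, SE 0.06), Pdp2 (0.01, SE 0.12) and Pdha1 (-0.11, SE 0.12) did not pass.

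**Figure D4:**
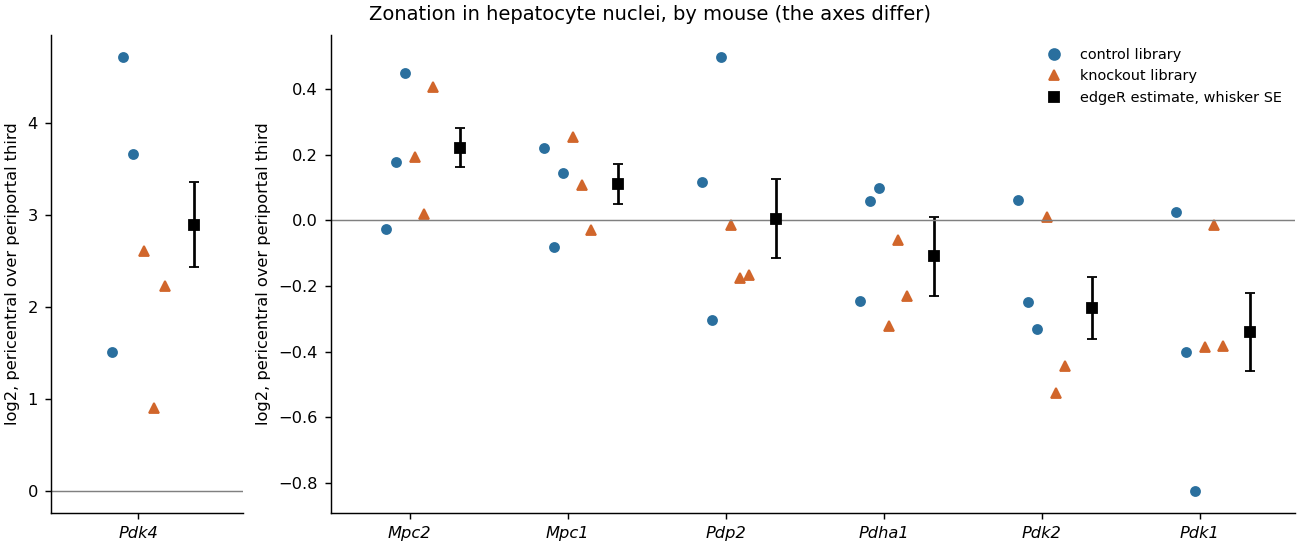
Log2 ratio of the pericentral over the periportal zone of hepatocyte nuclei; points are mice (log2 of TMM-scaled CPM + 1), black squares the edgeR estimate with its SE, and the 2 vertical axes differ. Pdk4 is above 0 in 6 of 6 mice, while most mice lie below 0 for Pdk1 and Pdk2.

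The group difference of Pdk4 was widest in the pericentral zone, at a log2 fold change of -2.15 (SE 0.67), against -1.05 (SE 0.42) in the middle and -0.42 (SE 0.63) in the periportal zone. The periportal value was 0.11 without control 3 and -1.21 without knockout 2. The change of this group difference with zone, the zone by genotype term, is a description as well, because the members were chosen by the hepatocyte difference. It was -1.59 for Pdk4 (SE 1.05), and 0 of 7 members were called, against 0.203% of 11848 genes. Without control 1 the Pdk4 term was -2.23, and without control 1 and knockout 2 it was -1.33. Without knockout 2 alone it was -0.68, and with zone boundaries set over all libraries it was -0.72. The pericentral zones did not hold alike nuclei: their median zone score was 1.69, 2.01 and 1.36 in controls and 0.536, 1.22 and 0.802 in knockouts.

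A fixed score was therefore used as well, chosen after seeing this. Nuclei with a score over 1 made up 19.7%, 26.7% and 20.5% of hepatocyte nuclei in controls and 13.7%, 17.9% and 15.7% in knockouts. In them Pdk4 had 32.3, 135 and 266 CPM in controls and 82.2, 34.1 and 27.1 CPM in knockouts. The groups again overlapped: control 1 lay below knockouts 1 and 2, and knockout 1 lay above control 1 (log2 fold change -1.72, SE 0.81). In nuclei with a score of 1 or less, Pdk4 had 15.6, 8.40 and 19.7 CPM in controls and 7.11, 12.9 and 3.34 CPM in knockouts, and the groups overlapped too (-0.999, SE 0.487). The nuclei over 1 gave 33.3%, 84.9% and 76.9% of all hepatocyte Pdk4 UMIs in controls and 62.6%, 36.5% and 57.7% in knockouts. The share was lowest in control 1 and knockout 2. The part of the share of pericentral nuclei in the group difference was not tested.

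**Figure D5:**
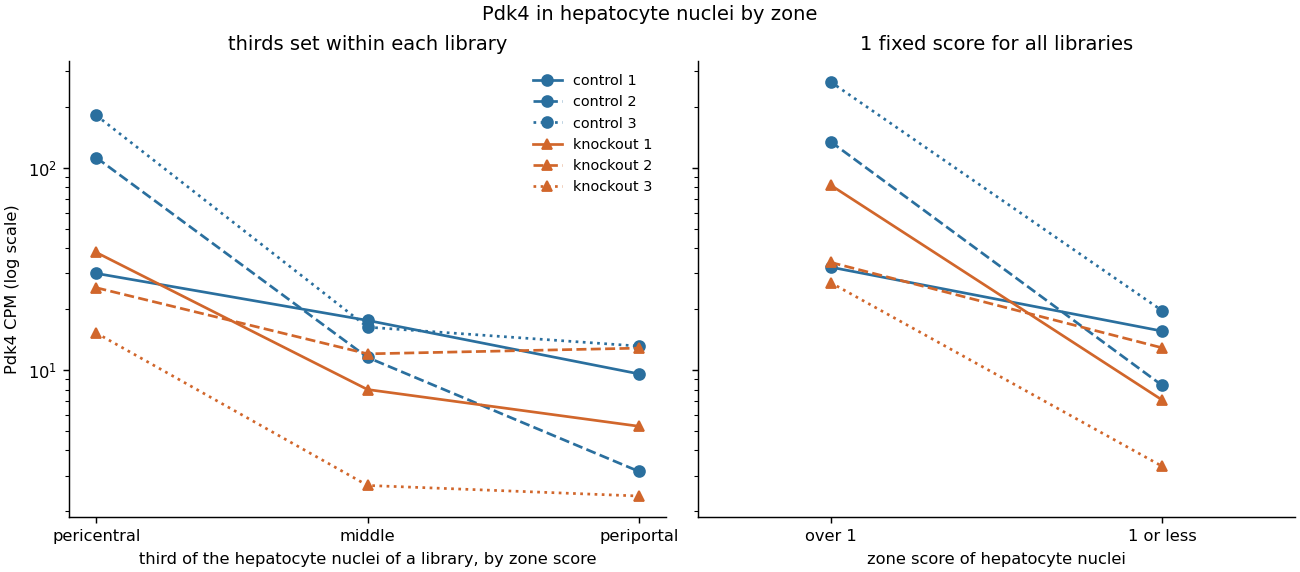
Pdk4 level (CPM, log axis) in hepatocyte nuclei by library, in 3 zones set within each library (left) and on either side of a fixed zone score of 1 (right); blue lines are controls and orange lines knockouts. Every library is higher in the pericentral than in the periportal zone, and above a score of 1 control 1 (32.3 CPM) lies within the range of the knockouts.

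Outside hepatocytes no difference in the members passed the test. In 6 classes, 35 pairs of a member and a class were tested, and 0 passed in edgeR or DESeq2. None had an unadjusted p under 0.05 in edgeR, and the smallest was 0.0855. The background of calls was 0.0505% in stellate cells, 0.0155% in T/NK, 0.062% in B nuclei and 0% in endothelial cells, macrophages and cholangiocytes. Log2 fold changes ran from -0.80 to 0.61, with 17 below and 18 above 0. The lowest was Pdk4 in stellate cells, at 19.9, 56.6 and 50.1 CPM in controls and 19.3, 24.8 and 31.6 CPM in knockouts (-0.80, SE 0.40, edgeR adjusted p 0.999). Control 1 was again low and lay among the knockouts, and without it the value was -1.15 (edgeR adjusted p 0.109). In endothelial cells Pdk4 had 21.7, 32.7 and 43.4 CPM in controls and 33.6, 27.1 and 38.3 CPM in knockouts, with a log2 fold change of -0.02 (SE 0.26). In cholangiocytes it was 0.12 (SE 0.39). Control 1 had the lowest Pdk4 of the endothelial libraries as well.

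The other members gave no called difference in these classes. T/NK Pdk1 had 84.97, 81.5 and 101 CPM in controls and 101, 109 and 135 CPM in knockouts (0.35, SE 0.23, edgeR adjusted p 0.997). Endothelial Pdk1 had 35.0, 61.9 and 45.1 CPM in controls and 48.0, 39.0 and 72.8 CPM in knockouts (0.12, SE 0.30), and macrophage Pdk3 gave 0.16 (SE 0.34). The highest log2 fold change was that of Pdp2 in macrophages, 0.61 (SE 0.41), from 90 UMIs in all. Stellate Pdp1 had 17.9, 19.3 and 14.99 CPM in controls and 19.6, 21.9 and 16.02 CPM in knockouts (0.09, SE 0.20).

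The lists for the remaining parts of the pathway in hepatocytes had median differences between the groups of -0.11 to 0.01 on the log2 scale, and the median of all genes was -0.003. Counts and medians of these lists are descriptions. Of 10 genes of the pyruvate dehydrogenase complex, its lipoylation and the related branched-chain enzyme, 7 were lower and 3 higher, with a median of -0.02 and 0 called. Examples are Ppm1k, the branched-chain phosphatase (-0.06, SE 0.43), and Pdpr, the phosphatase regulatory subunit (-0.03, SE 0.15). Of 14 genes of pyruvate supply and export, 9 were tested, with 7 lower, a median of -0.11 and 0 called. The alanine aminotransferase Gpt2 gave -0.22 (SE 0.62) and the serine dehydratase Sds -0.02 (SE 0.38). Of 11 genes for other fates of pyruvate and acetyl-CoA, 10 were tested, 5 in each direction, with a median of 0.01. Acat1, the mitochondrial thiolase, gave 0.09 (SE 0.22).

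Lists of regulators and of fasting genes lay lower in knockouts without a call. Of 16 regulators reported to act on Pdk genes, 13 were lower and 3 higher, with a median of -0.21 and 0 called. With libraries left out singly, 10 were lower without control 2 (median -0.12) or knockout 1 (-0.09), and 15 without knockout 3 (-0.33). Without control 1 and knockout 2, 12 were lower, with a median of -0.18. Ppara, the fatty acid receptor, gave -0.29 (SE 0.22), and Insr gave -0.09 (SE 0.20). Of 19 fasting-induced genes, 18 were lower, with a median of -0.56 and 0 called, against 50.5% of all genes lower. The mean deviation of its genes from their own mean over the 6 libraries, on the log2(CPM + 1) scale, was -0.592, 0.435 and 0.677 in controls and -0.0739, -0.538 and 0.0921 in knockouts, so the groups overlapped and control 1 was the lowest library. Without control 1 and knockout 2 the count was again 18 of 19 lower, with a median of -0.52. Without control 3 it was 13 of 19 with a median of -0.25, and without knockout 2 it was 15 of 19 with a median of -0.26. Examples are Cyp4a14 (-0.56, SE 0.45), Mfsd2a (-1.08, SE 0.20) and Acot1 (-0.87, SE 0.16). Of 16 genes listed here as feeding-induced, 15 were tested, 7 lower and 8 higher, with a median of 0.05 and 0 called. That median ran from -0.41 without knockout 2 to 0.74 without control 1. Among them Mlxipl gave -0.03 (SE 0.22) and G0s2 -0.96 (SE 0.83), which was 0.46 without control 1. Angptl8 gave 0.99 (SE 1.48), and -1.68 without knockout 2. Egr1 gave 2.06 (SE 0.79), which rested on knockout 3: it was at 92.6 CPM there and 7.21 to 13.6 CPM in the other libraries after TMM scaling, and without knockout 3 the value was 0.51.

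Between zones some genes of every list passed, where none had between the groups. Of all 11848 genes tested between zones, 27.4% passed, 12.5% pericentral and 14.9% periportal. The counts of the lists below are descriptions beside that share. In the pyruvate dehydrogenase complex list, Ppm1k was pericentral (0.49, SE 0.09, edgeR adjusted p 0.000232) and Pdhb, the beta subunit, periportal (-0.27, SE 0.09, edgeR adjusted p 0.0259), of 10 tested. In supply and export, 3 of 8 tested were pericentral, the monocarboxylate transporters Slc16a7 (0.91) and Slc16a1 (0.33) and the lactate dehydrogenase Ldhd (0.35). The 2 periportal ones were the pyruvate kinase Pklr (-0.73) and the aminotransferase Gpt (-0.28). Among 10 genes of other fates, the citrate synthase Cs was pericentral (0.61), and 4 were periportal, among them Acly (-1.30), Slc25a10 (-0.47) and Pcx (-0.28). Acly, the citrate lyase of lipogenesis, was the 1 listed gene that passed the zone by genotype test (0.91, SE 0.19, edgeR adjusted p 0.0388), against 0.203% of 11848 genes. The pericentral zones of the groups differed in median zone score, as given above, and the part of this in the Acly call was not tested. With zone boundaries set over all libraries, the genes called in this test fell from 24 to 2. Of 16 regulators, Esrrg (9.36), Pparg (6.19) and Irs2 (0.46) were pericentral. The 6 periportal ones were Ppargc1a (-1.16), Ppargc1b (-0.98), Esrra (-0.70), Nr0b2 (-0.66), Hnf4a (-0.22) and Insr (-0.14). Of 19 fasting-induced genes, 4 were pericentral, with Acot1 at 2.80, and 11 periportal, with Mfsd2a at -1.92. Of 15 genes listed as feeding-induced, 1 was pericentral, Mlxipl (0.22), and 10 periportal.

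The genes whose hepatocyte level most resembled that of Pdk4 over the 6 libraries, of 8840 compared, were Agap1 (Pearson r 0.99), Zfp438, Aox1, Lman2l and Txnip (0.976). These are descriptions over 6 libraries that share depth and cell makeup, picked as the highest of many. Txnip, a glucose-responsive thioredoxin inhibitor, had 74.2, 132 and 244 CPM in controls and 52.3, 70.1 and 39.8 CPM in knockouts after TMM scaling. Its order of libraries was close to that of Pdk4, with control 3 highest and knockout 3 lowest. Over the 42 values of library and class, the closest of 11042 genes were Arhgef10l (0.933), Tns1, Rbpms, Nfib and Peli2.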

How the data were processed

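Nuclei of 6 livers were sequenced with the 10x 3' v3.1 kit, per the labels' protocols. The deposited matrices hold UMI counts per gene and barcode. The authors made them with Cell Ranger 7.0.1 on mm10, per the submitters' processing notes, while the file headers name version 7.1.0. The members and lists were chosen with earlier results of these data known. Barcodes with 500 genes, 1000 UMIs and at most 5% mitochondrial UMIs were kept, doublets called by Scrublet (804, 2.25% to 3.72% per library) removed, and nuclei clustered with scanpy 1.11.5 (3000 variable genes, 30 components, 15 neighbours, Leiden resolution 1). Clusters were named from fixed markers. No cluster could be named mesenchymal, so that class was not tested. A cluster led by Dmbt1 and Mmp7, of which 96.5% came from control 2, was left out under a limit of 90% from 1 library. That limit was not applied to hepatocyte clusters, so the Nipal1 and Afm cluster, 92.8% from knockout 1, was kept. Libraries held 23153182 to 27199466 UMIs.

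Counts summed per library and class, for classes with 20 nuclei in every library, were tested with edgeR 4.0.16 (TMM, filterByExpr, robust quasi-likelihood, Benjamini-Hochberg over all genes tested). DESeq2 1.42.0 was an alternative. Zones were compared with the mouse as a block, leaving out the score's marker genes. Of all hepatocyte nuclei, 33.6% lay within 0.1 of a boundary between zones. Alternatives were other scalings, no filter, thinning to 1500 UMIs, 2000 UMIs as minimum, classes by single-nucleus score, other zone boundaries and leaving out libraries. Scripts were tested on simulated data. Named genes were all members and, of each list, those past the threshold, otherwise the 2 of highest hepatocyte CPM, plus, of the fasting and feeding lists, the 2 of largest fold change. Some genes that this rule names are not reported here. The tags are 3' ends, so levels were not compared between genes. Symbols and positions are from GENCODE M21 (32235 of 32285 features found).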

Additional observations from a re-analysis of the deposited data

Results flagged for a closer look

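Pooled over libraries, nuclei outside the tested classes held more of some members than any library of any class taken as a whole. Pdk4 was at 71.4 CPM in 240 nuclei of a cluster led by Itgbl1, Svep1 and C7, which stayed unnamed because Wt1, a mesothelial marker, was among its leading genes; the highest library of a class had 68.3 CPM. By library it was 41.4, 48.8 and 138 CPM in controls and 32.2, 80.5 and 125 CPM in knockouts, from 4 to 22 UMIs each. Within a tested class, the hepatocyte cluster led by Cyp2c69 held more Pdk4, at 179 CPM over its 456 nuclei. Pdk3 was at 48.9 CPM in 90 plasmacytoid dendritic nuclei (18 UMIs) and at 105.9 CPM in 42 nuclei led by Jchain and Ighg2b (16 UMIs), against 47.6 CPM in the highest library of a class. By library the plasmacytoid nuclei gave 5, 1 and 0 Pdk3 UMIs in controls and 4, 5 and 3 in knockouts. The Jchain nuclei gave 7, 5 and 1 in controls and 3, 0 and 0 in knockouts. Mpc1 was at 645.2 CPM in 28 nuclei led by S100a8 and S100a9, from 26 UMIs, with at least 1 UMI in 42.9% of them and in 5 of 6 libraries, against 185 CPM in the highest library of a class. These are levels of few nuclei, and no test was made.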

How the results depend on the processing

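The hepatocyte value of Pdk4 chose these genes, so its range is a description. It ran from -1.18 to -2.18 with libraries left out singly, and from -0.999 to -2.32 over all alternatives, beside a replicate SD of 0.86. Because the groups did not overlap, leaving out a library could not be expected to turn the sign. In all nuclei together the Pdk4 value was -0.89, and -0.36 without control 3. The count of called members between knockout and control was 0 in every class and alternative outside hepatocytes. Calls over all genes moved between 0 and 14 in hepatocytes, 4 and 70 in stellate cells, 0 and 28 in endothelial cells, 0 and 36 in macrophages, 1 and 5 in T/NK, 1 and 21 in B nuclei and 0 and 10 in cholangiocytes. Between zones the 4 called members became 2 on library size alone, 2 without the amino acid markers, and 0 after thinning, where 4 members were tested. They were 2 to 4 with libraries left out singly. Pdk2 between zones turned to 0.17 after thinning (adjusted p 0.712 by edgeR), and thinning left 1279 calls over all genes. Zone by genotype calls over all genes ranged from 2 to 128, with 112 without control 1. With libraries left out singly, endothelial Pdk1 ran from -0.17 to 0.37 and macrophage Pdk3 from -0.18 to 0.47; the signs turned for Pdk1 without control 1 (-0.08) or knockout 3 and for Pdk3 without control 2 (-0.04) or knockout 2, and the cause was not tested. No paired analysis was possible because the labels give each mouse an identifier of its own, and the numbers 1 to 3 used here only name the libraries in the order of the samples. With 3 mice per group, small differences are not detectable, and p-values measure only the spread between these mice. Low UMI totals limit Pdk3 and Pdp1 in hepatocytes and most members in B and T/NK nuclei.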
